A study of Mus musculus with 30 samples.

Results

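The 5 genes described here code for proteins that autoantibodies of Sjögren's syndrome are reported to bind: Trim21, Ssb, Ro60 (older symbol Trove2), Chrm3 and Car6. They were chosen by name, with earlier results of these data known, and are 5 of the 18194 genes with a probe set on the array, measured by 12 probe sets. The microarrays read total RNA of whole salivary glands from female NOD.H-2h4 mice, an inbred strain known for a spontaneous inflammation of the salivary glands that resembles Sjögren's syndrome. At 4 weeks of age each mouse had received 1 intraperitoneal injection, at 20 mg/kg, of an antibody to CD40L or of a human IgG1 isotype control antibody. CD40L is the T cell protein that engages CD40 on B cells. The 6 groups were anti-CD40L glands at week 8, 16 or 24 and control IgG glands at the same ages, with 5 arrays in each group that the labels call biological replicates. No untreated mice and no mice of another strain are among these samples, so every group carried the NOD.H-2h4 background and an injected antibody. The comparisons ask whether the autoantigen transcripts differed with treatment at each age, and whether they differed with age within each treatment.

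TRIM21 is an antibody receptor of the cytosol and a ubiquitin ligase, and together with the unrelated RNA-binding protein RO60 it makes up what is called the Ro or SSA antigen. RO60 is a ring-shaped protein that holds misfolded small RNAs and Y RNAs, and SSB, the La antigen, binds the uridine-rich ends of new RNA polymerase III transcripts and protects them. CHRM3 is the muscarinic acetylcholine receptor through which parasympathetic nerves drive saliva secretion, and CAR6 is the secreted carbonic anhydrase of saliva. Trim21 is known as an interferon-induced gene, whereas Ssb and Ro60 are expressed in nearly all cell types.

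Trim21 is the member with the largest change below when each gene is read by its probe set of highest mean. Its promoter is shown for this reason and because interferon-induced genes carry a recognisable element. It is the RefSeq sequence of build GRCm38.p6 on the minus strand at chr7:102565433-102565732, which begins 250 bases before the annotated start of the gene. The capitals mark the searched interferon-stimulated response element core, which reads GAAA, any 2 bases, then GAAA.
Trim21: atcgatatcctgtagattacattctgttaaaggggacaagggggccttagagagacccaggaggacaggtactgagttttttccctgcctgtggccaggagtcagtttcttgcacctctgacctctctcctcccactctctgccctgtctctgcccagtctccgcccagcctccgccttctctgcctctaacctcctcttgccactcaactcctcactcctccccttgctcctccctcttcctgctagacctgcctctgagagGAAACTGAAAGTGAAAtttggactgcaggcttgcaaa
The capitals hold 2 overlapping matches on the strand of the gene, at bases 14 to 23 and 20 to 29 after the start. This core was found, on either strand, in 3.44% of 32851 RefSeq promoters of the same length. Counted by gene, 1079 of 27025 genes (3.99%) had a match, and so did 10 of the 19 genes (52.6%) with a promoter sequence here among the interferon-stimulated genes of the fixed list on the array. None of the 300-base promoters of Ssb, Ro60, Chrm3 and Car6 held this core. The STAT motif TTCNNNGAA, present in 8.3% of all promoters, was in none of the 5, and the E-box CACGTG, present in 7.15%, was in that of Car6 only, at bases -149 to -144 from its start. A match is a run of letters and not a measured binding site.

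Values are log2 intensities as the authors deposited them, and a level is compared only within 1 probe set, never between genes. Each gene was read by its probe set of highest mean. Medians of the 30 arrays lay between 5.487 and 5.537, and 12999 genes, 4 of the 5 members among them, lay above the median of their array in at least 5 arrays and were tested. Tests are from a limma model over all genes tested with Benjamini-Hochberg adjustment, errors of differences are standard errors, and a gene is called when its adjusted p was under 0.05. The p-values measure the spread between these arrays, moderated for each gene toward the spread of all genes tested, and the number of arrays limits the precision. Salivary tissue was evident in every array: of 7 granular duct markers of the submandibular gland, 6 lay above the array median in all 30 arrays, with Egf between 12.18 and 13.35. The parotid amylase Amy1 ranged from 6.575 to 13.695, so the arrays differed in parotid signal. The 3′ minus 5′ signal difference, averaged over the control probes for Gapdh and actin, is a measure that grows with RNA degradation. It was 0.369 and 0.566 in anti-CD40L and control IgG glands at week 8, 0.260 and 0.291 at week 16, and 0.201 and 0.406 at week 24 (two-sided exact permutation p = 0.0635, 0.413 and 0.00794, the last being the smallest that 5 against 5 arrays allow, with 0.0524 after adjustment over 33 tests). With this measure as a covariate, 23 genes were called for treatment at week 24 in place of 1229. Against week 8, control glands then had 620 calls in place of 6047 at week 16 and 715 in place of 1624 at week 24. Anti-CD40L glands had 633 in place of 3074 at week 24. At week 24 the measure lay between 0.1645 and 0.2485 in anti-CD40L and between 0.2865 and 0.6095 in control IgG glands, without overlap. At that age its part and that of treatment cannot be told apart. These limits hold for the calls of list genes below. In whole-gland RNA, fewer cells of a type and less RNA per cell cannot be told apart.

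**Figure D1:**
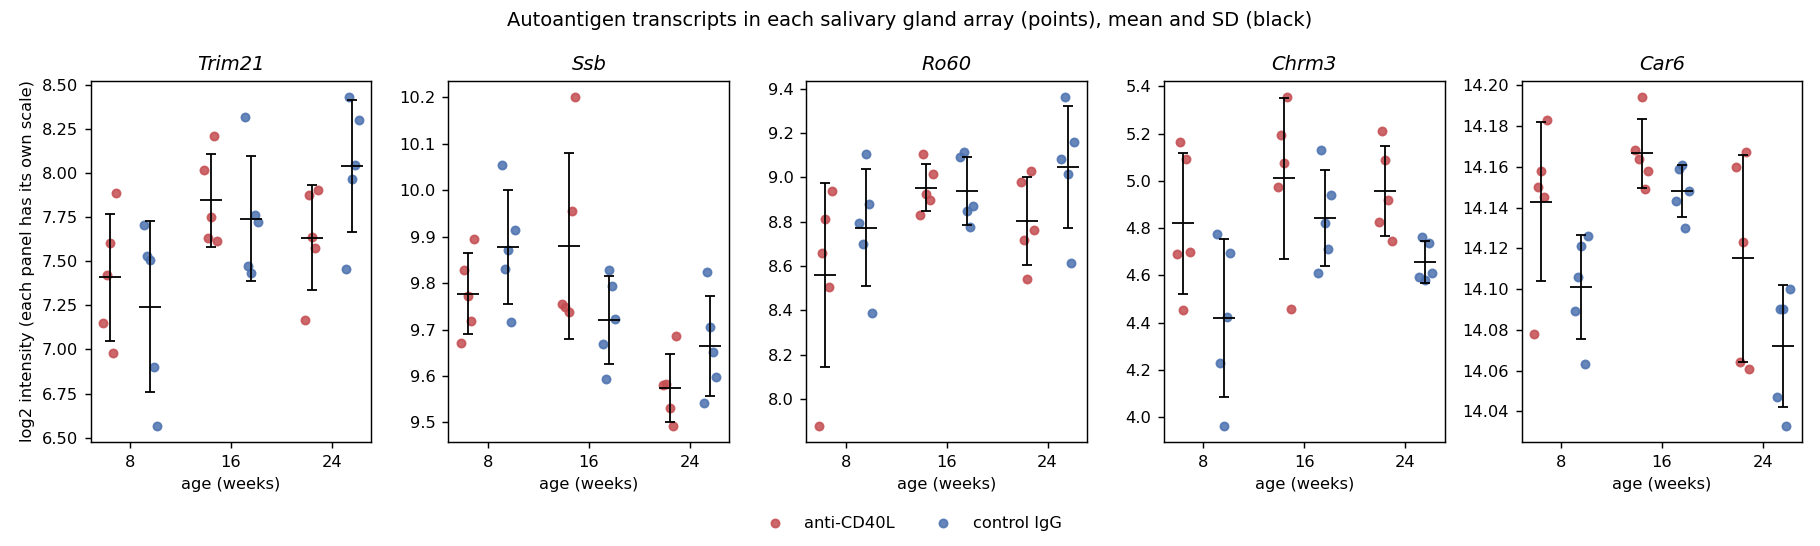
Log2 intensity of each autoantigen gene on every array against age in weeks, with 1 panel and 1 scale per gene. Points are arrays, anti-CD40L left of control IgG at each age, and black bars are the group mean and SD (n = 5). The groups overlap at every age, and Trim21 in control glands is highest at week 24, at 8.04 ± 0.38.

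No tested autoantigen transcript passed the test for treatment at any age. None of the 4 was called at week 8, 16 or 24, where 0.0692%, 1.88% and 9.45% of all genes tested were called. The arrays of both treatments overlapped for every member at every age, whereas 1.12%, 9.05% and 8.14% of the genes tested had groups that did not overlap. The largest treatment difference of a tested member was that of Trim21 at week 24, -0.41 ± 0.22, and it did not pass the test. Of the 12 probe sets of the members, that of Chrm3 was under the filter and not tested. The others also gave no call for treatment when each was fitted on its own, with 0.0412%, 1.7% and 8.54% of 21830 probe sets called. The median difference of the 4 tested members was -0.03, 0.06 and -0.16 at weeks 8, 16 and 24, beside medians over all genes of 0.01, 0.02 and 0.03. In the same glands 3, 5 and 10 of 11 B and plasma cell markers fell, where 0.0692%, 0.577% and 3.49% of all genes did. Of the 11, Cd79b, Ms4a1 and Tnfrsf17 were above the array median in only 8, 13 and 7 arrays and were tested through those.

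**Figure D2:**
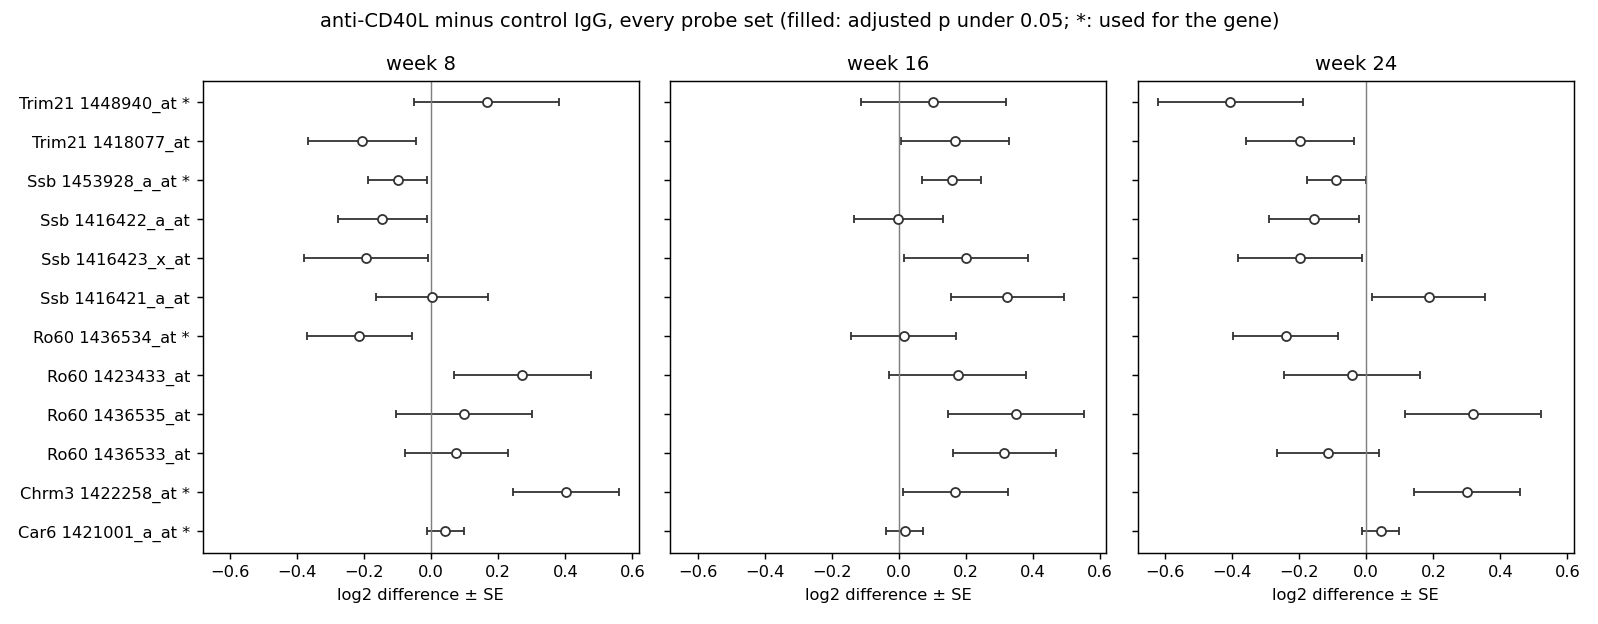
Difference of anti-CD40L minus control IgG on the log2 scale for each of the 12 probe sets, 1 panel per age. Points are differences, bars are ± 1 SE, and an asterisk marks the probe set used for the gene. A filled point would be a call at an adjusted p under 0.05 in the fit of every probe set, which did not test Chrm3. No point is filled, and the widest difference to the left is that of Trim21 at week 24, -0.41.

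With age, 0 and 1 of the 4 tested members were called in control IgG glands at weeks 16 and 24, where 46.5% and 12.5% of all genes were, and 1 and 0 in anti-CD40L glands, where 36.5% and 23.6% were. The called members were Trim21 in control glands and Ro60 in anti-CD40L glands, a single member in each. For neither was the difference between the treatments in this change called.

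Trim21, the cytosolic antibody receptor, rose with age in control glands at week 24. At week 8 it read 7.15, 7.42, 7.60, 6.98 and 7.88 in anti-CD40L glands, against 7.71, 7.53, 7.50, 6.90 and 6.57 in control IgG glands. At week 16 the values were 8.02, 7.63, 7.75, 8.21 and 7.61 in anti-CD40L glands, against 8.32, 7.47, 7.43, 7.76 and 7.72 in control IgG glands. At week 24 they were 7.17, 7.88, 7.64, 7.58 and 7.90 in anti-CD40L glands, against 7.46, 8.43, 7.97, 8.04 and 8.30 in control IgG glands. Of the control arrays at week 24, 4 lay above every control array of week 8, and the fifth, at 7.46, lay among them.

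Between ages, Trim21 in control IgG glands averaged 8.04 ± 0.38 at week 24 and 7.24 ± 0.48 at week 8 (SD, n = 5 each), a rise of 0.80 ± 0.22 or 1.74-fold (95% interval 1.28 to 2.36, limma adjusted p = 0.0173). At week 16 the control mean was 7.74 ± 0.35, a difference from week 8 of 0.50 ± 0.22 that missed the threshold (adjusted p = 0.0597) and passed it without control IgG week 8 replicate 1 or 2, or week 16 replicate 3 (adjusted p = 0.0244, 0.0463 and 0.0439). Anti-CD40L glands averaged 7.41 ± 0.36, 7.84 ± 0.26 and 7.63 ± 0.30 at weeks 8, 16 and 24. Their differences from week 8 were 0.44 ± 0.22 at week 16 (adjusted p = 0.110, or 0.0490 without anti-CD40L week 8 replicate 5) and 0.22 ± 0.22 at week 24 (adjusted p = 0.449). The age change passed the test in control glands and not in treated glands, but the test of the difference itself, -0.57 ± 0.31 for week 24 minus week 8, was not past the threshold (adjusted p = 0.913, 95% interval -1.20 to 0.06). For this contrast 0.00769% of genes were called.

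By treatment, Trim21 differed by 0.17 ± 0.22 at week 8 (adjusted p = 0.744), by 0.10 ± 0.22 at week 16 (adjusted p = 0.90) and by -0.41 ± 0.22 at week 24 (adjusted p = 0.209). As folds, these were 1.12 (95% interval 0.824 to 1.53), 1.07 (0.789 to 1.46) and 0.755 (0.555 to 1.03). The second Trim21 probe set, 1418077_at, gave -0.21, 0.17 and -0.20 for treatment, none called. It rose in anti-CD40L glands at week 16 by 0.55 ± 0.16 (adjusted p = 0.0108 in the fit of every probe set), and its control difference of 0.41 ± 0.16 at week 24 had an adjusted p of 0.0802. In anti-CD40L glands at week 24 its difference from week 8 was 0.42 ± 0.16 (adjusted p = 0.054 in the same fit). The change of its treatment difference from week 8 to 24 was 0.0084 ± 0.23, against -0.57 ± 0.31 for the probe set used. The 2 probe sets thus passed the threshold in different groups, which does not show that the groups differed.

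The week 24 call of Trim21 in control glands was lost without some single arrays and with a measure of RNA quality as a covariate. It did not pass without control IgG week 8 replicate 4 or replicate 5, or without control IgG week 24 replicate 2 (adjusted p = 0.0626, 0.0567 and 0.0651), and with the 3′ minus 5′ difference as a covariate it was 0.68 (adjusted p = 0.0874). In control glands the 3′ minus 5′ difference averaged 0.406 at week 24 and 0.566 at week 8. The mean level of the 11 B and plasma cell markers also differed between these ages. It lay between 8.66 and 9.76 in control glands at week 24 and between 6.50 and 7.97 at week 8. Singly, 10 of 11 of these markers rose, where 8.49% of all genes did. Of the 11, Cd79b, Ms4a1 and Tnfrsf17 were dim, with lowest values of 4.551, 4.452 and 4.3. They lay above the array median in only 8, 13 and 7 arrays of the series. Near background the size of their differences may not follow the transcript, and they entered the test only through those arrays. Their calls are therefore given as values and not as support. Of the other cell types, 3 of 8 T cell markers and 3 of 7 myeloid markers rose and none fell, and 1 of 2 skeletal muscle markers, Acta1, rose. The T cell calls were Cd3g, Cd3d and Cd2. Cd3g and Cd2 lay above the array median in only 6 arrays each, and Acta1 did so in 5. The same limits hold for these dim genes. The mean T cell marker level lay between 6.003 and 7.162 at week 24 and 5.40 and 6.25 at week 8, and that of myeloid markers between 7.41 and 8.30 at week 24 and 7.02 and 8.06 at week 8. The part of these cells in the Trim21 change was not tested.

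Among the interferon-stimulated genes of the list, those called in the same glands all rose. In control glands at week 24 against week 8, 7 of the 21 tested rose and none fell, where 8.49% of all genes rose, with a median of 0.89 beside 0.05 over all genes. The largest were the antiviral genes Ifit1 (2.09 ± 0.51, adjusted p = 0.00913) and Oasl2 (2.08 ± 0.60, adjusted p = 0.0235), the ISG15 protease Usp18 (1.73 ± 0.55, adjusted p = 0.0393) and the oligoadenylate synthetase Oas1a (1.45 ± 0.29, adjusted p = 0.00305). In the other age contrasts the median of the list was also above that of all genes, but a smaller share of the list was called higher than of all genes. In control glands at week 16, 4 of 21 rose and none fell, with a median of 0.51 beside 0.06 over all genes, where 28.4% of all genes rose. In anti-CD40L glands 4 rose at week 16 and 2 at week 24 and none fell. The medians there were 0.41 and 0.44, beside 0.09 and 0.09 over all genes, where 24.1% and 16.5% of all genes rose. With treatment at week 24, 3 of 21 fell and none rose, where 3.49% of all genes fell, with a median of -0.50 beside 0.03. These were Oas1a (-1.31 ± 0.29), and the immunoproteasome subunits Psmb8 (-1.29 ± 0.38) and Psmb9 (-1.22 ± 0.37), with adjusted p of 0.00981, 0.0342 and 0.0376. The mean level of the list was 7.08 ± 0.35 in anti-CD40L and 7.76 ± 0.48 in control IgG glands at week 24 (SD, n = 5 each, two-sided exact permutation p = 0.0556, 0.204 after adjustment over 33 tests). In the same contrast 10 of 11 B and plasma cell markers and 6 of 8 T cell markers fell. Of these markers Cd79b, Ms4a1, Tnfrsf17, Cd3g and Cd2 were dim, and the limits given above for dim genes hold here too. The median of the T cell markers was -1.01, and their mean level lay between 5.22 and 5.83 in anti-CD40L and between 6.003 and 7.162 in control IgG glands. The 3′ minus 5′ difference was 0.201 in anti-CD40L and 0.406 in control IgG glands, and with it as a covariate 23 genes were called in place of 1229. The part of these cells in the interferon-stimulated genes was not tested.

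The genes whose pattern over the 30 arrays was most like that of Trim21 were Erap1 (r = 0.851), which trims peptides for MHC class I, Irgm1 (r = 0.848), an interferon-induced GTPase, and Tor3a (r = 0.822), a torsin ATPase. The gene at rank 100 had r = 0.671. These correlations pool the 6 groups and share their arrays, so they describe the arrays as a set.

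Of the other TRIM genes, a family of ubiquitin ligases, 26 were tested. In control glands at week 24 against week 8, 4 of the 26 rose and none fell, where 8.49% of all genes rose, with a median of 0.21 beside 0.05 over all genes: Trim34a (1.23 ± 0.29), Trim25 (0.999 ± 0.238), which activates the RNA sensor RIG-I, Trim35 (0.48 ± 0.13) and Trim33 (0.38 ± 0.13), with adjusted p between 0.00729 and 0.0497. At week 16 in control glands 12 of the 26 rose and 1 fell, where 28.4% and 18.1% of all genes did. With treatment at week 24, 5 of 26 rose, where 5.96% of all genes did, including Trim56 (0.94 ± 0.29, adjusted p = 0.0406) and Trim16 (0.65 ± 0.17, adjusted p = 0.0201). Of 16 partners and substrates of TRIM21, none rose and 1 fell with treatment at week 24, where 5.96% of all genes rose and 3.49% fell: Irf8, a transcription factor of B cells and myeloid cells (-0.48 ± 0.12, adjusted p = 0.0167). For treatment at week 24, the 3′ minus 5′ covariate gave 23 called genes in place of 1229. With age in control glands 1 of the 16 rose by week 24, Irf7, the interferon-inducing transcription factor that TRIM21 marks for degradation (1.15 ± 0.34, adjusted p = 0.0284), where 8.49% of all genes rose. The median of the 16 was 0.04 in that contrast, beside 0.05 over all genes.

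Ro60, the RNA-binding Ro antigen, rose with age in anti-CD40L glands between weeks 8 and 16. At week 8 it read 7.88, 8.66, 8.81, 8.50 and 8.94 in anti-CD40L glands, against 8.80, 8.70, 9.10, 8.88 and 8.39 in control IgG glands. At week 16 the values were 8.83, 9.11, 8.92, 8.90 and 9.01 in anti-CD40L glands, against 9.09, 9.11, 8.85, 8.77 and 8.87 in control IgG glands. At week 24 they were 8.98, 8.72, 8.54, 9.03 and 8.76 in anti-CD40L glands, against 9.08, 9.36, 9.01, 8.61 and 9.16 in control IgG glands. The anti-CD40L arrays of week 16 were close together, whereas those of week 8 were spread widely, down to 1 low array at 7.88.

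Anti-CD40L glands averaged 8.95 ± 0.11 at week 16 and 8.56 ± 0.41 at week 8 (SD, n = 5 each), a rise of 0.39 ± 0.16 or 1.31-fold (95% interval 1.05 to 1.64, adjusted p = 0.0489). In this contrast 36.5% of all genes were called, so 1 of 4 tested members lies below that share. The call was lost without 8 of the 10 arrays taken out in turn, with adjusted p up to 0.217 when anti-CD40L week 8 replicate 1 was left out, and after quantile normalization, where the difference was 0.18 (adjusted p = 0.338). In control glands the Ro60 differences from week 8 were 0.17 ± 0.16 at week 16 (adjusted p = 0.389) and 0.27 ± 0.16 at week 24 (adjusted p = 0.247), and in anti-CD40L glands at week 24 it was 0.25 ± 0.16 (adjusted p = 0.243). The week 16 change in anti-CD40L glands minus that in control glands was 0.23 ± 0.22 (95% interval -0.22 to 0.68). It was not called (limma adjusted p = 0.697), where 0.146% of genes were, so the Ro60 rise is not shown to differ between treatments. By treatment, the folds were 0.862 (95% interval 0.69 to 1.08) at week 8, 1.01 (0.809 to 1.26) at week 16 and 0.847 (0.678 to 1.06) at week 24, with adjusted p of 0.516, 0.982 and 0.307.

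Of the other 3 Ro60 probe sets, 1423433_at lay above the array median in 30 of 30 arrays, 1436535_at in 16 and 1436533_at in 7. Every week 8 array of 1436533_at read 5.32 or lower, under the array medians, and those of 1436535_at lay under them too except control IgG replicate 3 (5.78). These 2 dim probe sets entered the fit of every probe set mainly through the later groups where they were higher, so only their differences are given. In anti-CD40L glands at week 16 against week 8, 1423433_at rose by 0.66 ± 0.20 (adjusted p = 0.0140), where 37.5% of probe sets were called. No array of week 16 overlapped with week 8 for 1423433_at, which held upward for 20.6% of all probe sets tested. With the 3′ minus 5′ difference as a covariate it was 0.56 (adjusted p = 0.0470), and the probe set used for the gene was 0.45 (adjusted p = 0.0420). The dim probe sets differed by 0.88 ± 0.20 (1436535_at) and 0.55 ± 0.15 (1436533_at). At week 24 against week 8, 1423433_at differed by 0.49 ± 0.20 in anti-CD40L glands and was not called (adjusted p = 0.0772), where 24.2% of probe sets were, and the dim ones differed by 0.79 ± 0.20 (1436535_at) and 0.45 ± 0.15 (1436533_at). All of the 4 but 1423433_at were designed on the same target sequence, so they are not independent readings.

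In control glands 1423433_at rose at both ages, by 0.76 ± 0.20 at week 16 (adjusted p = 0.0040) and by 0.80 ± 0.20 at week 24 (adjusted p = 0.0114) against week 8, where 47.5% and 13.7% of probe sets were called. With the 3′ minus 5′ covariate neither was called (0.51, adjusted p = 0.226, and 0.66, adjusted p = 0.0778). The dim probe sets differed in control glands by 0.63 ± 0.20 and 0.56 ± 0.20 (1436535_at) and by 0.31 ± 0.15 and 0.64 ± 0.15 (1436533_at) at weeks 16 and 24. Parotid signal also differed between the ages. Amy1 was high in 5 anti-CD40L and 3 control arrays at week 8 and in 2 arrays of each later group, and with Amy1 as a covariate the week 16 difference of Ro60 in anti-CD40L glands was 0.35 (adjusted p = 0.140). The genes most like Ro60 over the arrays were Rabgap1 (r = 0.891), a Rab GTPase-activating protein, Zmym5 (r = 0.891), a zinc finger protein, and Ppp1r12a (r = 0.868), a myosin phosphatase subunit, with r = 0.749 at rank 100.

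**Figure D3:**
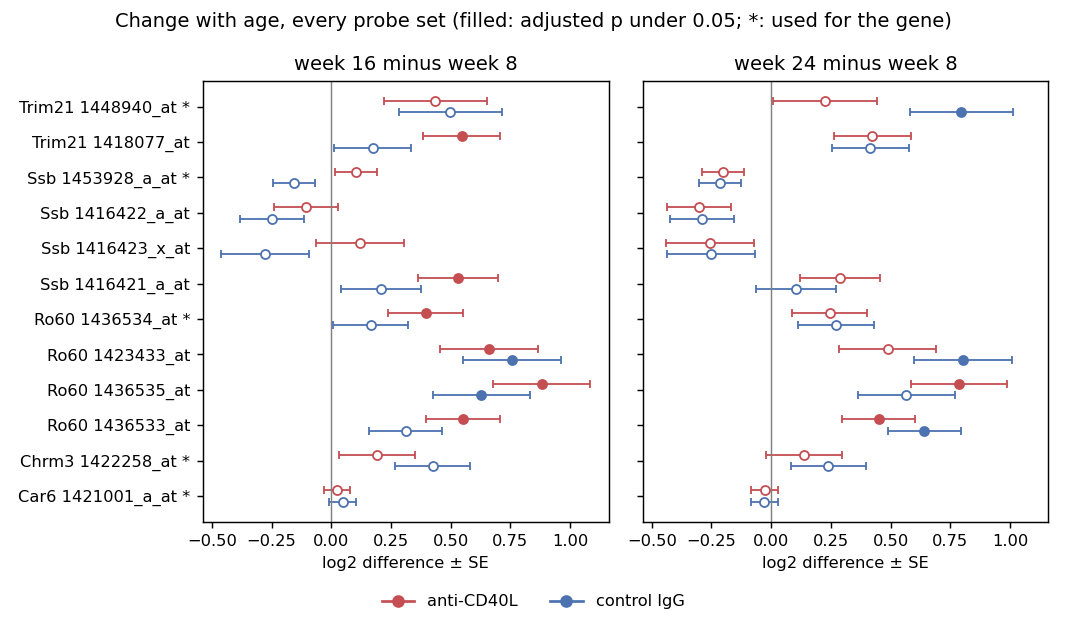
Difference of week 16 (left panel) and week 24 (right panel) minus week 8 on the log2 scale for each of the 12 probe sets, anti-CD40L above control IgG. Points are differences, bars are ± 1 SE, an asterisk marks the probe set used for the gene, and filled points are calls at an adjusted p under 0.05 in the fit of every probe set, which did not test Chrm3. The filled points of week 16 include Ro60 1436534_at and 1423433_at in anti-CD40L glands, those of Ro60 1436533_at and 1436535_at come from dim probe sets, and Trim21 1448940_at is filled in control glands at week 24, at 0.80.

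Ssb codes for the La antigen, and the probe set used for it varied little within groups. Anti-CD40L glands lay between 9.67 and 9.89 at week 8, 9.74 and 10.20 at week 16, and 9.49 and 9.69 at week 24. Control IgG glands lay between 9.72 and 10.05, 9.59 and 9.83, and 9.54 and 9.82 at the same ages. Its within-group SD of 0.122 was below that of most genes, with 5.93% of the genes tested having a smaller one and a median of 0.222. Trim21, at 0.362, was above 88.5% of genes in this measure and Ro60, at 0.255, above 64.3%. The other 3 Ssb probe sets varied more, with within-group SDs of 0.212 (1416422_a_at), 0.274 (1416421_a_at) and 0.304 (1416423_x_at), so the low spread belongs to 1 probe set.

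By treatment Ssb differed by -0.10 ± 0.09 at week 8, 0.16 ± 0.09 at week 16 and -0.09 ± 0.09 at week 24 (adjusted p = 0.587, 0.413 and 0.501), with intervals for the fold of 0.825 to 1.05, 0.988 to 1.26 and 0.831 to 1.06. On the probe set used for the gene, both treatments were lower at week 24 than at week 8 without passing the test, by -0.20 ± 0.09 in anti-CD40L (adjusted p = 0.0826) and -0.21 ± 0.09 in control IgG glands (adjusted p = 0.0966). After quantile normalization both passed, at -0.34 in anti-CD40L and -0.27 in control IgG glands (adjusted p = 0.00409 and 0.0173), and with the 3′ minus 5′ covariate the control difference did, at -0.29 (adjusted p = 0.0465). Week 16 differed from week 8 by 0.10 ± 0.09 in anti-CD40L and by -0.16 ± 0.09 in control IgG glands (adjusted p = 0.347 and 0.134), and the difference between these, 0.26 ± 0.12, was not called (adjusted p = 0.348), where 0.146% of genes were. Of the other 3 Ssb probe sets only 1416421_a_at was called in an age contrast, a rise of 0.53 ± 0.17 in anti-CD40L glands at week 16 (adjusted p = 0.0162). With the 3′ minus 5′ covariate it was 0.35 (adjusted p = 0.0612). At week 24 against week 8 this probe set was higher, by 0.29 ± 0.17 in anti-CD40L and 0.10 ± 0.17 in control IgG glands. In contrast, 1416422_a_at (-0.30 ± 0.13 and -0.29 ± 0.13) and 1416423_x_at (-0.25 ± 0.18 and -0.25 ± 0.18) were lower in the same glands. None of these week 24 differences was called. The genes most like Ssb were Strap (r = 0.828), a WD-repeat protein, Rtca (r = 0.782), an RNA cyclase, and 4930453N24Rik (r = 0.768), with r = 0.572 at rank 100.

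Proteins that work with La and Ro60 gave calls in both directions. Of 19 tested partners and La-related proteins, 4 rose and 1 fell with treatment at week 24, where 5.96% of all genes rose and 3.49% fell, with a median of 0.17. Those named by the rule were Lsm2 (0.81 ± 0.21) and Lsm3 (-0.58 ± 0.15), both subunits of the ring that binds U6 RNA, and the La-related proteins Larp1 (0.73 ± 0.18) and Larp4b (0.54 ± 0.16), with adjusted p between 0.0148 and 0.0402. With the 3′ minus 5′ covariate 23 genes were called in this contrast in place of 1229. At week 16, 1 rose, Lsm6 (0.51 ± 0.11, adjusted p = 0.0127), where 1.31% of all genes rose, and at week 8 none was called. In control glands at week 24 against week 8 none rose and 2 fell, Larp4 (-0.44 ± 0.14, adjusted p = 0.0453) and Ybx3 (-0.35 ± 0.10, adjusted p = 0.0224), where 4.01% of all genes fell. At week 16 against week 8 in control glands 8 of the 19 rose and 5 fell, where 28.4% and 18.1% of all genes did.

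Chrm3, the muscarinic receptor of secretion, was dim. Its 1 probe set lay above the array median in 0 of 30 arrays, so it was not among the genes tested and its values sit near background. At week 8 it read 4.69, 5.16, 4.45, 5.09 and 4.70 in anti-CD40L glands, against 4.78, 4.23, 3.96, 4.42 and 4.70 in control IgG glands. At week 16 the values were 4.98, 5.19, 5.08, 5.35 and 4.46 in anti-CD40L glands, against 4.61, 5.13, 4.82, 4.71 and 4.94 in control IgG glands. At week 24 they were 4.82, 5.21, 5.09, 4.92 and 4.74 in anti-CD40L glands, against 4.59, 4.76, 4.58, 4.74 and 4.61 in control IgG glands. At week 24, 4 of the 5 anti-CD40L arrays lay above every control array, and at the earlier ages the groups overlapped more.

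In the fit with no filter, over 18194 genes, Chrm3 differed by treatment by 0.40 ± 0.16, 0.17 ± 0.16 and 0.30 ± 0.16 at weeks 8, 16 and 24, with adjusted p of 0.289, 0.775 and 0.244, where 0.055%, 1.07% and 5.71% of genes were called. Near background these differences may not follow the transcript, and no direction is read from them. With age, Chrm3 differed by 0.42 ± 0.16 in that fit in control glands at week 16 against week 8 (adjusted p = 0.0374), a contrast in which 35.2% of genes were called. The genes most like Chrm3 were the amino acid transporter Slc43a1 (r = 0.78), Hps4 (r = 0.772), which serves the making of lysosome-related organelles, and Blcap (r = 0.77), with r = 0.703 at rank 100.

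Genes downstream of the receptor were measured more firmly. Of 23 tested genes of muscarinic signalling, 3 rose and 1 fell with treatment at week 24, where 5.96% and 3.49% of all genes did, with a median of 0.14: the G protein subunits Gnaq (0.75 ± 0.19, adjusted p = 0.0171) and Gna11 (0.46 ± 0.13, adjusted p = 0.0241), which couple the receptor to phospholipase C, the calcium pump Atp2a2 (0.61 ± 0.18, adjusted p = 0.0373) and Rgs2, a brake on such G proteins (-0.82 ± 0.26, adjusted p = 0.0478). None of the 23 was called at week 8 or 16. The related receptor Chrm1 differed by no more than 0.08 ± 0.13 at any age. With age in control glands 12 rose and 2 fell at week 16, where 28.4% and 18.1% of all genes did, led by the calcium release channel Itpr2 (1.45 ± 0.29, adjusted p = 0.000372) and the phospholipase Plcb1 (-1.11 ± 0.29, adjusted p = 0.00367). These week 24 treatment calls stand beside the 3′ minus 5′ difference of 0.201 in anti-CD40L and 0.406 in control IgG glands, and with it as a covariate 23 of 12999 genes were called at that age.

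Car6, the salivary carbonic anhydrase, was near the top of every array and moved little. Anti-CD40L glands lay between 14.08 and 14.18 at week 8, 14.15 and 14.19 at week 16, and 14.06 and 14.17 at week 24. Control IgG glands lay between 14.06 and 14.13, 14.13 and 14.16, and 14.03 and 14.10 at the same ages. The whole range over 30 arrays was 14.033 to 14.194, and on each array between 1 and 5 probe sets were brighter, the brightest by 0.209 to 0.368.

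The treatment differences of Car6 were 0.04, 0.02 and 0.04 with an SE of 0.05 (adjusted p = 0.729, 0.928 and 0.599), and the intervals of the fold were 0.956 to 1.11, 0.941 to 1.09 and 0.957 to 1.11. Its mean was higher in anti-CD40L glands at each age by this small margin, and the difference at week 16, 0.0184, was above the larger SD of the groups, 0.0169. Between control glands of week 16 and week 8 the arrays did not overlap, which held for 26.8% of all genes, though the difference was only 0.05 (adjusted p = 0.462). The within-group SD of 0.0319 was smaller than that of nearly every gene, with 0.0231% of genes below it. Because the model moderates the spread, the SE, intervals and adjusted p of Car6 do not rest on its own spread alone. The 144 probe sets with a mean above 13 had a median SD of 0.0894 over the arrays, against 0.0434 for Car6. A log2 intensity this close to the top of the scale leaves little room for a rise, and whether the probe set was saturated was not tested.

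**Figure D4:**
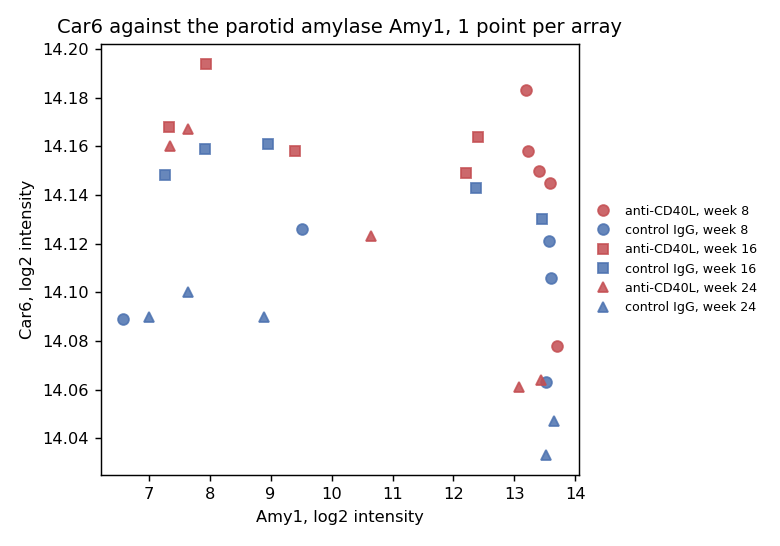
Log2 intensity of Car6 against that of the parotid amylase Amy1, 1 point per array, with colour for treatment and shape for age. The arrays fall into 16 with Amy1 between 12.206 and 13.695 and 14 with Amy1 between 6.575 and 10.654, and Car6 stays between 14.03 and 14.19 in both.

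The nearness of Car6 to the top of the scale also limits what its level can show about parotid signal. In the 16 arrays of high Amy1 its median was 14.126 (range 14.033 to 14.183), and in the 14 arrays of low Amy1 it was 14.153 (range 14.089 to 14.194). With Amy1 as a covariate the treatment differences were 0.06, 0.02 and 0.05. The genes most like Car6 over the arrays were Gcnt1 (r = 0.791), a mucin glycosyltransferase, the kinase Pim3 (r = 0.791) and the tight junction protein Marveld3 (r = 0.785), with r = 0.691 at rank 100.

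Of the other carbonic anhydrases, which exchange carbon dioxide and bicarbonate, 12 were tested. With treatment 1 rose and 1 fell at week 16, the tumour-associated Car9 (0.68 ± 0.14, adjusted p = 0.0122) and Car15 (-0.33 ± 0.09, adjusted p = 0.0479), where 1.31% of all genes rose and 0.577% fell, and none was called at week 8 or 24. The membrane-bound Car12 rose with age in both treatments, at week 16 by 0.54 ± 0.19 in anti-CD40L and 1.02 ± 0.19 in control IgG glands, and at week 24 by 0.82 ± 0.19 and 0.77 ± 0.19, with adjusted p between 0.000289 and 0.0329. Car13 rose at week 24 by 0.81 ± 0.19 in anti-CD40L and 0.61 ± 0.19 in control IgG glands (adjusted p = 0.0060 and 0.0385), where 16.5% and 8.49% of all genes rose. Others fell in control glands: Car7 by -0.82 ± 0.17 at week 16 and -0.74 ± 0.17 at week 24 (adjusted p = 0.000512 and 0.00619), and at week 16 also Car9 (-0.48 ± 0.14, adjusted p = 0.00846) and Car10 (-0.44 ± 0.17, adjusted p = 0.0337). In all, 2 rose and 3 fell in control glands at week 16 and 2 rose and 1 fell at week 24, where 28.4% and 8.49% of all genes rose and 18.1% and 4.01% fell.

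Ordered by their means over the 6 groups, the members gave different orders. Trim21 ran from control week 24 (8.04) down through anti-CD40L week 16 (7.84), control week 16 (7.74), anti-CD40L week 24 (7.63) and anti-CD40L week 8 (7.41) to control week 8 (7.24). Ro60 had the same group at the top, control week 24 (9.04), and anti-CD40L week 8 at the bottom (8.56). Ssb was highest in anti-CD40L week 16 (9.88) and lowest in anti-CD40L week 24 (9.57). For Trim21, Ro60, Ssb and Chrm3 no neighbours in the order differed by more than the larger of their SDs, and for Car6 those that did were anti-CD40L and control IgG at week 16.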

How the data were processed

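Total RNA of 30 whole salivary glands was measured on Affymetrix mouse expression arrays. The table was used as deposited; its values, 2.757 to 14.457, were read as log2 intensities, and the submitters' processing notes name limma without a version. Probe summary and normalization are not given in the sources used here. Of 45101 probe sets, 34958 had exactly 1 gene in the platform annotation, 932 had several and 9211 none; 34754 matched a RefSeq gene. Each gene was represented by its probe set of highest mean and tested when above the array median in at least 5 arrays. A limma model (version 3.58.1, R 4.3.3) with a mean for each group took in all 30 arrays and 12999 genes (9 contrasts, Benjamini-Hochberg, threshold 0.05), after a test on simulated data. The rule names every member, the 3 most correlated genes of each, and up to 4 called genes of each of 16 lists. Chrm1 was named outside this rule, after its values were seen. The members and lists were chosen with earlier results of these data known. Alternatives were quantile normalization, median centring, filters, other probe set rules, array weights, Amy1 and 3′ minus 5′ covariates, the replicate block and leaving out each array. Promoters are from RefSeq. Equal replicate numbers in different groups did not pair the arrays.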

Additional observations from a re-analysis of the deposited data

Results flagged for a closer look

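Among the 72 groups of 5 values of the 12 probe sets, 2 held an array far from the other 4. For Ssb, probe set 1416422_a_at read 8.50 in anti-CD40L week 24 replicate 5, where the other 4 arrays lay between 8.09 and 8.19. Probe set 1416423_x_at read 7.42 in control IgG week 8 replicate 4, where the others lay between 8.08 and 8.24. Chance alone marks about 1 in 20 groups in this way. Neither probe set was the one used for Ssb.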

How the results depend on the processing

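The count of members called for treatment was 0 at each age, and 0 for both changes of the treatment effect with age, under every alternative run and without any 1 array. The age counts moved. In control glands at week 16 the count of 0 became 1 under quantile normalization (Ssb), no filter (Chrm3), the median over probe sets (Ro60) and every probe set (Ro60), and lay between 0 and 1 without 1 array. In control glands at week 24 the count of 1 became 2 under quantile normalization (Trim21 and Ssb), the median over probe sets and every probe set (Trim21 and Ro60), and lay between 0 and 1 without 1 array. With the 3′ minus 5′ covariate that count was also 1, but the gene was Ssb and not Trim21. In anti-CD40L glands at week 16 the count of 1 became 0 under quantile normalization, no filter, the Amy1 covariate and without the 5 arrays of lowest correlation, 2 under the median over probe sets and under every probe set with the 3′ minus 5′ covariate, and 3 under every probe set, and lay between 0 and 2 without 1 array. In anti-CD40L glands at week 24 the count of 0 became 1 under quantile normalization (Ssb), the median over probe sets (Ro60) and every probe set (Ro60, through its 2 dim probe sets). With the replicate block the week 16 count in anti-CD40L glands was 0 (Ro60 adjusted p = 0.0616) and the block changed no other count of members; between groups, same-numbered arrays correlated between -0.633 and 0.401, in no comparison were more than 2 of 5 pairs over 0.1, and in none did more than 1 array correlate best with its own number, so the numbers were not taken to pair the arrays. The 49 reversed values all missed the threshold. By treatment, Ro60 reversed under the median over probe sets (0.132 at week 8 and 0.121 at week 24), without the 5 arrays (0.0727 at week 8) and under quantile normalization (-0.0334 at week 16), and lay between -0.0260 and 0.0588 at week 16 without 1 array. Trim21 at week 8 reversed under the median over probe sets (-0.0201) and lay between -0.00305 and 0.281 without 1 array. With age at week 16, quantile normalization reversed Ro60 in control glands (-0.0271) and Ssb (-0.0727) and Car6 (-0.00445) in anti-CD40L glands, and the Amy1 covariate reversed Car6 there (-0.00161). Of the changes of the treatment effect from week 8 to 16, Ro60 reversed without the 5 arrays (-0.0575) and Trim21 under the median over probe sets (0.155) and the 3′ minus 5′ covariate (0.0539), with -0.179 to 0.106 for Trim21 without 1 array. Of those to week 24, Car6 reversed under quantile normalization (-0.0185), array weights (-0.0214), the Amy1 covariate (-0.0115) and without the 5 arrays (-0.0156), and Ssb under quantile normalization (-0.0650), the Amy1 covariate (-0.000168) and without the 5 arrays (-0.00107). Without 1 array these lay between -0.0150 and 0.0147 for Car6, -0.0338 and 0.0508 for Ssb and -0.195 and 0.0708 for Ro60. The causes were not tested. Of 848 values of single members under an alternative, 770 kept direction and side of the threshold and 49 reversed. Leaving out the 5 arrays, the mean-variance trend and every probe set with the covariate were chosen after seeing the data. Genes called by treatment ranged over the gene-level alternatives, single arrays aside, from 0 to 43 at week 8 (main 9), 195 to 1557 at week 16 (245) and 23 to 1888 at week 24 (1229), the lowest of the last with the 3′ minus 5′ covariate; with age in control glands from 620 to 6403 at week 16 (6047) and 715 to 1838 at week 24 (1624), and in anti-CD40L glands from 2478 to 5311 (4751) and 633 to 3502 (3074). Without 1 array the treatment counts were 4 to 23, 74 to 220 and 237 to 2140.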

Other observations

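Of 11 other reported Sjögren autoantigens tested, 1 rose with treatment at week 24, the nucleolar phosphoprotein Nolc1 (0.57 ± 0.14, limma adjusted p = 0.0177), where 5.96% of all genes rose, and none was called at week 8 or 16. With the 3′ minus 5′ covariate 23 genes were called for treatment at week 24 in place of 1229, and 620 in control glands at week 16 in place of 6047. With age, 7 rose in control glands at week 16 and 5 in anti-CD40L glands, where 28.4% and 24.1% of all genes rose, and none fell. Calr, the calcium-binding chaperone calreticulin of the endoplasmic reticulum, rose in each age contrast, at week 16 by 0.89 ± 0.11 in anti-CD40L and 0.68 ± 0.11 in control IgG glands and at week 24 by 0.54 ± 0.11 and 0.47 ± 0.11, with adjusted p between 1.22e-05 and 0.00783. The water channel Aqp5 rose at week 16 in both treatments, by 0.36 ± 0.14 in anti-CD40L and 0.38 ± 0.14 in control IgG glands (adjusted p = 0.0427 and 0.0297).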
